A study of Sus scrofa with 23 samples.

Results

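The step from morula to trophectoderm was described in porcine embryos fertilized in vivo, from the deposited expression values of the IV-D morula library (MO) and the library of the trophectoderm part of IV-D blastocysts (TE). These are 2 of the 23 libraries of the series and were taken by their labels, with 1 library a side. RNA had been sequenced through pre-implantation development in IV-D embryos and in embryos cloned from Duroc (NT-D) and Laiwu (NT-LW) fibroblasts. IV-D embryos came from pregnant Duroc sows, had a single Duroc boar as sire and were flushed from the uterus, while cloned embryos, made from ear fibroblasts of that boar and of a Laiwu boar by nuclear transfer into oocytes of hybrid sows, grew in PZM3 medium at low oxygen. A knife divided each blastocyst into a piece of TE alone and a piece with inner cell mass and TE together (IT), so the TE library came from cut tissue and the morula library from whole embryos. The zona pellucida had been taken off with acidic Tyrode's solution in all groups, and embryos that looked normal were selected. Samples were pools of embryos of one stage. Per the study, cloned embryos were all male, while IV-D samples mixed male and female embryos of a sow that were not sexed.

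The trophectoderm is the first epithelium of the embryo. Its cells carry keratins, desmosomes and tight junctions, take up nutrients through an apical surface with microvilli, and pump salt and water into the blastocoel, and they later form the fetal part of the placenta. The inner cell mass beneath it holds the pluripotent epiblast precursors and the hypoblast. In many mammals YAP and TEAD4 activity in outer cells switches on CDX2 and GATA3, while NANOG, SOX2 and POU5F1 become restricted to inner cells.

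Values are FPKM, fragments per kilobase of gene and per 1000000 fragments, for 8603 genes of the deposited table. Depth was 21077697 fragments in the morula and 14952784 in TE, the lowest of the 23 libraries, whose highest was 22991067. The mitochondrial genome took 12.5% of fragments in the morula, 14.1% in IT and 18.2% in TE, and its share was 13.4% and 15.8% in morulae and TE in NT-D and 8.47% and 26.4% of NT-LW. Genes at an FPKM of at least 1 in either library were compared. A gain or loss was called where the difference of log2(FPKM + 1) exceeded 1. With 1 library a side no p-value exists for this step. Intervals in parentheses are exact 95% intervals of a ratio of fragments and cover counting error only, not variation between embryos.

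All 8 trophectoderm markers of the table (CLDN4, ELF3, GATA2, GATA3, KRT18, KRT8, TEAD4 and TFAP2C) were at 1 FPKM or more in the morula, IT and TE. Their summed level was 432 FPKM in the morula, 1404 in IT and 1211 in TE. Most of that sum came from KRT8 (142, 626 and 549 FPKM) and KRT18 (199.9, 627 and 582), so it does not describe the other markers. Of the 8 markers 4 were gained and 0 lost. TEAD4 (16.2 and 8.52 FPKM) and TFAP2C (11.9 and 5.58) were lower in TE than in the morula but not called. The 6 inner cell mass markers of the table (ESRRB, GDF3, GSC, KLF17, NANOG and OTX2) summed to 90.3 FPKM in the morula, 132 in IT and 4.84 in TE, where GSC and NANOG had 0 fragments. The study named GSC and KLF17 for their low level in this TE library, so their values are no independent check of the label. The 5 hypoblast markers summed to 73.1 FPKM in the morula, 71.4 in IT and 42.6 in TE, with 1 gained and 2 lost. Markers of endometrium (PGR), blood (HBB), stroma (COL1A1, COL1A2 and COL3A1) and cumulus (HAS2) were under 1 FPKM in both the morula and TE, and HBB was at 1.80 in IT. The 6 oocyte markers summed to 6.88 FPKM in the morula and 0.71 in TE. CDX2, SOX2, POU5F1 and SOX17 were not analysed here.

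Between the morula and TE, 864 of 7211 genes were gained (12%) and 1776 were lost (24.6%), of which 745 and 1514 have a gene symbol. Counts of gained and lost members in the gene lists below are to be read beside these shares of 12% and 24.6%. The median gene was lower in TE by a log2 difference of -0.37, and changes should be read relative to that shift. After the libraries were scaled to a common median ratio, the median difference was 0.01, 1323 genes were gained and 1092 lost. The gained share of all calls was therefore 32.7% as deposited and 54.8% after scaling. All 864 gained genes remained gained under that scaling, and each of its 1092 lost genes was among the 1776. Without the mitochondrial genome, an alternative chosen after the values were seen, 812 genes were gained and 1904 lost. A gain or loss over 4-fold was seen for 307 and 388 genes, and over 16-fold for 48 and 42 genes. The median gained gene stood at 4.61 FPKM in the morula and 21.1 in TE. The median lost gene stood at 14.1 FPKM in the morula and 3.49 in TE, and 100 lost genes had 0 fragments in TE against 6 gained genes with 0 in the morula. In bulk RNA, fewer cells of a type and less RNA per cell cannot be told apart.

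**Figure D1:**
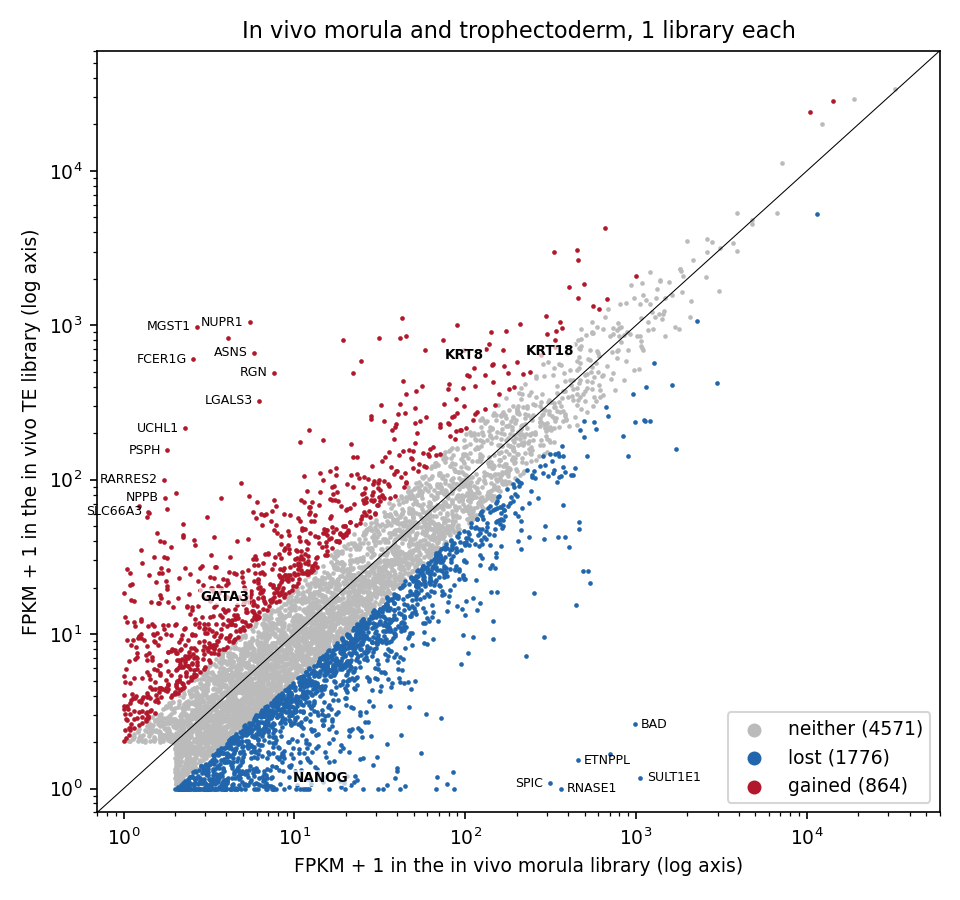
FPKM + 1 of each of the 7211 compared genes in the in vivo morula library (x axis, log scale) and the in vivo TE library (y axis, log scale), 1 library each, with 864 gained genes in red, 1776 lost genes in blue and the diagonal marking equal levels. Several lost genes, among them SULT1E1 and RNASE1, lie near 1 on the TE axis, which is an FPKM near 0, while KRT8 and KRT18 lie high in both libraries.

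The largest gains were led by MGST1, the microsomal glutathione transferase (chr5:56259566-56283823 in RefSeq positions of Sscrofa11.1). Its level was 1.68 FPKM in the morula, 22.1 in IT and 980.1 in TE, a ratio of 584 (425 to 825). FCER1G, the signalling chain of Fc receptors (chr4:89242467-89246344), went from 1.55 to 601 FPKM, a ratio of 388 (262 to 599). NUPR1, a nuclear protein induced by stress (chr3:18402781-18404411), was at 4.47 FPKM in the morula and 1042 in TE. All 3 were thus low in the morula and abundant in TE.

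Secreted and lectin genes were also among the 12 largest gains. RARRES2, which encodes the adipokine chemerin, was at 0.717 FPKM in the morula and 98.7 in TE, and NPPB, a natriuretic peptide, at 0.746 and 75.2. LGALS3, which encodes galectin-3, was at 5.21 and 323 FPKM. RGN, the calcium-binding protein regucalcin on the X chromosome, was at 6.6 FPKM in the morula, 51.5 in IT and 490.2 in TE. SLC66A3 went from 0.395 to 60.8 FPKM. The remaining 4 of the 12 were UCHL1, a ubiquitin hydrolase, and the amino acid synthesis genes ASNS, PSPH and PSAT1 described further on.

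The largest loss was that of SULT1E1, the estrogen sulfotransferase. It was at 1061 FPKM in the morula, 699 in IT and 0.177 in TE, or 84472 against 10 fragments, 5993-fold lower (3258 to 12497). BAD, a BCL2 family protein that promotes cell death (chr2:7831192-7842864), was at 985 FPKM in the morula, 1479 in IT and 1.6 in TE. The IT level of BAD was above that of the morula, so these transcripts were near absent from the TE piece alone. RNASE1, a secreted ribonuclease (chr7:78199007-78214832), had 4561 fragments in the morula and 0 in TE, at least 1079-fold lower against the level of 3 fragments. ETNPPL, an enzyme of phosphoethanolamine breakdown, was at 454 FPKM and 0.525.

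Other large losses included regulators and metabolic genes. SPIC, an ETS family factor, was at 310.5 FPKM in the morula, 376 in IT and 0.0841 in TE, with 2 fragments there, a ratio of 3693 (1022 to 30497). PORCN, the acyltransferase that lipidates WNT proteins, was at 77.3 and 0.0674 FPKM. FABP5, a fatty acid carrier, was at 83.7 and 0.279 FPKM. The X-linked genes MPC1L, a relative of the mitochondrial pyruvate carrier, and TKTL1, a transketolase relative, had 0 fragments in TE against 66.5 and 40.7 FPKM in the morula. RPL10L also had 0 fragments in TE against 32.1 FPKM, a value that is uncertain because it is a near copy of RPL10.

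**Figure D2:**
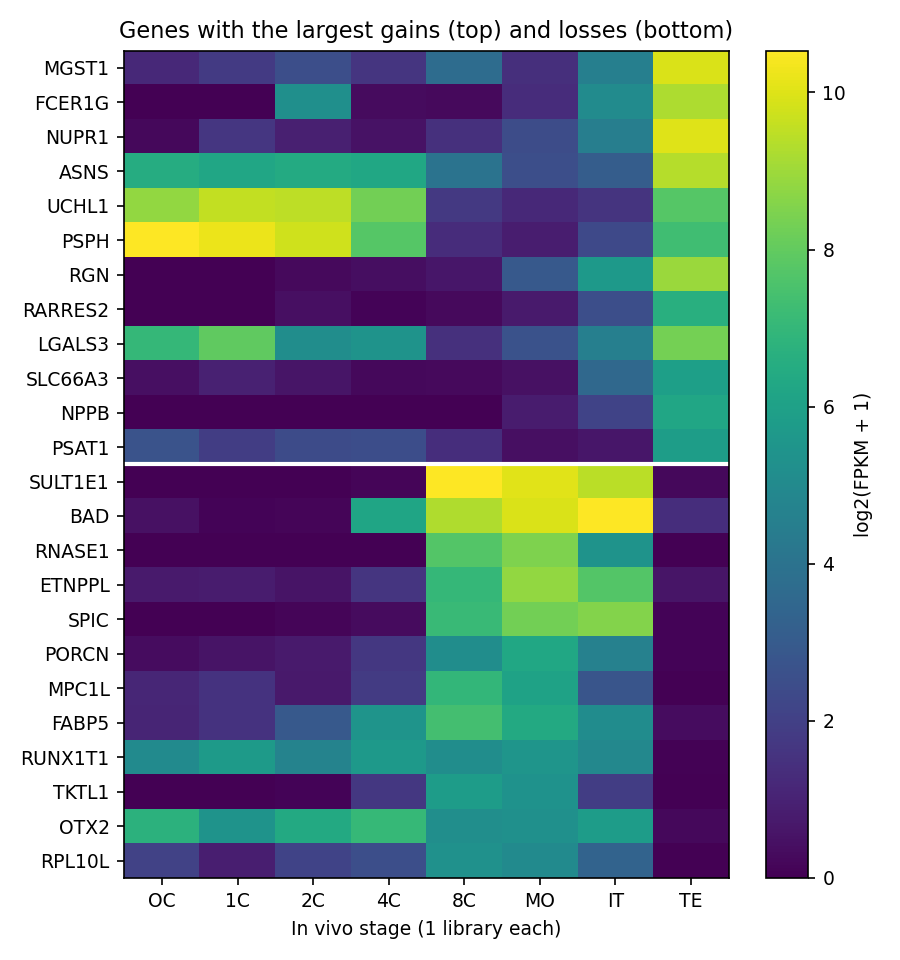
Heat map of log2(FPKM + 1) in the 8 in vivo libraries (columns, oocyte OC to TE, 1 library each) for the 12 genes with the largest gains (upper rows) and the 12 with the largest losses (lower rows). UCHL1, PSPH and ASNS are high in oocytes, low in morulae and high again in TE, whereas SULT1E1, RNASE1 and SPIC appear at the 8-cell stage (8C) and are dark in TE.

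Among factors that govern trophectoderm, more were lost than gained. Of 20 compared members of a list of trophectoderm regulators 2 were gained and 8 lost, against 12% and 24.6% of all compared genes, and the median difference was -0.83 against -0.37. With a filter of 5 FPKM 2 were gained and 5 lost. GATA3 went from 1.5 FPKM (91 fragments) to 14 (605 fragments), a ratio of 9.37 (7.51 to 11.8), with 5.42 in IT. GATA2 went from 1.13 to 6.91 FPKM, with 7 in IT. Both were below 1 FPKM at all stages before the morula.

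The lost members were expressed in whole morulae. WWTR1, which encodes the YAP relative TAZ, was at 46.9 FPKM in the morula, 44.6 in IT and 3.39 in TE. GRHL2, an epithelial factor, was at 13.8 and 1.77 FPKM, and TBX3 at 23.7 and 6.3. CITED2 was at 34.2 and 13.7 FPKM, and its difference missed the limit after median-ratio scaling. PPARG, a nuclear receptor, was at 7.41 and 1.79 FPKM, EHF at 2.36 and 0.446, HEY1 at 2.97 and 0.0139, and CITED1 at 2.74 and 0.0543. TEAD4 (16.2 and 8.52 FPKM) and TFAP2C (11.9 and 5.58 FPKM) were not called.

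In the Hippo pathway list 5 of 15 members were gained and 2 lost, against 12% and 24.6% of all compared genes. With a filter of 5 FPKM 3 were gained and 2 lost. In the clones more members were lost than gained. NT-D had 1 gained and 6 lost, against 8.66% and 38.5% of all its compared genes. NT-LW had 2 and 4, against 8.79% and 40.3%. CCN2, a target of YAP, was at 5.16 FPKM in the morula, 11.9 in IT and 0.175 in TE, 29.6-fold lower (16.8 to 57.6). ANKRD1, another YAP target, was at 0.0911 and 3.85 FPKM, and AMOTL2, a junctional binder of YAP, at 2.18 and 7.35. The 2 targets thus moved apart. FRMD6 (0.828 and 6.62 FPKM), NUAK2 (0.0539 and 2.28) and the kinase STK3 (7.5 and 18.1) were gained, while AMOT was at 14.2 and 6.11 FPKM and missed the limit after median-ratio scaling.

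Epithelial genes were gained more often than lost. Of 36 compared keratin, junction and polarity genes 10 were gained and 4 lost, with a median difference of 0.07 against -0.37 for all genes. KRT8 was at 142 FPKM in the morula, 626 in IT and 549 in TE, and its partner KRT18 at 199.9, 627 and 582. TE and IT were thus alike in keratin and both above the morula. Desmosome genes DSG2 (11.2 to 66 FPKM), PKP2 (17.5 to 44.4), DSP (7.1 to 17) and PERP (32.2 to 241) were gained together with OCLN and TJP3 of tight junctions (28.4 to 72.5 and 0.64 to 8.5 FPKM) and the polarity scaffold DLG1 (5.72 to 32.2).

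Claudins were among the lost junction genes. CLDN1 was at 23.3 FPKM in the morula and 0.548 in TE, 42.6-fold lower (31.7 to 58.5), and CLDN10 had 0 fragments in TE, at least 20.6-fold lower. The connexin gene GJB5 (114 to 47.7 FPKM) was higher in IT than in the morula, at 196 FPKM. It missed the limit after median-ratio scaling.

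Genes of the actin cortex and of the endocytic and lysosomal system were gained. Of 34 microvillus and cortical actin genes 15 were gained and 1 lost, with a median difference of 0.88. S100A11, a calcium-binding partner of annexins, was at 18.4 FPKM in the morula and 799 in TE, and ANXA1 at 40.2 and 822. MYL3, a myosin light chain, was listed at 0 through the 8-cell stage and stood at 0.803 FPKM in the morula and 63.5 in TE. The 1 lost member was LCP1 (1.87 and 0.107 FPKM), which is also on the list of blood cell genes.

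Of 33 endocytosis and lysosome genes 19 were gained and 2 lost, with a median difference of 1.33 and a summed level of 2735 FPKM in the morula and 10326 in TE. CST6, a cystatin, was at 30.1 FPKM in the morula, 175 in IT and 824 in TE. NPC2, which carries cholesterol out of lysosomes, was at 88.3 and 1000.3 FPKM, and the acid ceramidase ASAH1 at 4.43 and 76.9. Among members chosen after their values were seen, CSTB reached 4247 FPKM from 660.5, and LRP2, an endocytic receptor, was lost (163 to 47.4 FPKM).

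CST6 was also the single compared gene of an endometrium list. AIF1, on the list of blood cell genes, was at 1.02 FPKM in the morula, 2.26 in IT and 81.2 in TE. Of 6 markers written for each of those tissues only 1 was in the deposited table, PGR and HBB, at 0.183 and 0.0751 FPKM in TE. Single genes cannot show whether other cells of those tissues were present. The stroma genes COL1A1, COL1A2 and COL3A1 were at 0 in TE.

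**Figure D3:**
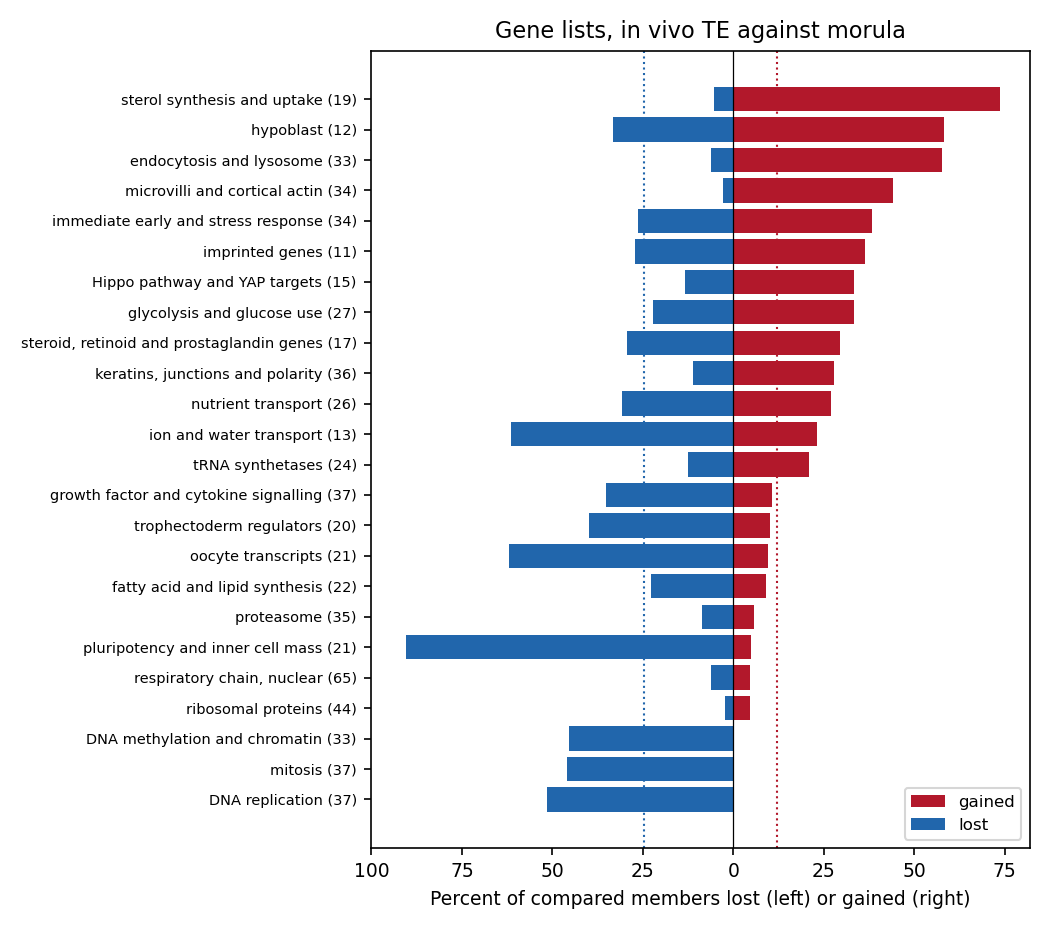
Percent of the compared members that, in each gene list not added after the values were seen and with at least 8 compared members, were lost (blue, left) or gained (red, right) between the in vivo morula and TE libraries, with the number of compared members in parentheses and dotted lines at the shares of all 7211 compared genes, 24.6% and 12%. The sterol, hypoblast, lysosome and actin lists extend furthest to the right, the hypoblast list with losses as well, and the pluripotency list extends furthest to the left with 19 of 21 members lost.

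Transport genes moved in both directions. Of 13 ion and water transport genes 3 were gained and 8 lost, and after median-ratio scaling 3 and 4. CA2, carbonic anhydrase 2, was at 28 FPKM in the morula and 0.423 in TE, 66.2-fold lower (43.2 to 107), and CA4 had 0 fragments in TE. SCNN1A, the alpha subunit of the epithelial sodium channel, had 1 fragment in the morula and 221 in TE (3.9 FPKM), a ratio of 312 (55.3 to 12359.6). SLC26A6, an anion exchanger, was at 0.522 and 3.9 FPKM.

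Of 26 nutrient transporters 7 were gained and 8 lost, against 12% and 24.6% of all compared genes. The list turned to more gains than losses after median-ratio scaling. SLC7A11, the cystine transporter, was at 0.892 FPKM in the morula and 35.4 in TE, and SLC2A8, a glucose transporter, at 0.499 and 10.2. SLC6A8, the creatine transporter, was at 93.5 and 5.42 FPKM.

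Creatine kinase CKB was lost too (1708 to 157 FPKM), within a glycolysis and energy list of which 9 of 27 were gained and 6 lost. LDHA, lactate dehydrogenase A, was at 27.1 FPKM in the morula and 246 in TE, while PDHA1, a subunit of pyruvate dehydrogenase, was at 94.8 and 13.6. RENBP, a renin-binding protein with epimerase activity on amino sugars, was at 0.562 and 44 FPKM. In a list of sialic acid and amino sugar genes drawn up after the values were seen, 6 of 8 were gained and 0 lost, for example NPL, which cleaves sialic acid (0.0872 to 19.8 FPKM).

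Sterol synthesis had the largest gained share among the plotted lists. Of 19 members 14 were gained and 1 lost, the median difference was 2.24 and the summed level went from 208 to 1598 FPKM. CYP51A1, the lanosterol demethylase, was at 0.264 FPKM in the morula, 0.668 in IT and 34.1 in TE, a ratio of 129.6 (84.5 to 209.8). MSMO1, a sterol oxidase, was at 23.6, 171 and 586 FPKM, and SQLE, the squalene epoxidase, at 2.71, 11.3 and 75.1. The lost member was STARD4, which carries cholesterol between membranes (24 to 1.14 FPKM). In the oocyte MSMO1 had stood at 389 FPKM and SQLE at 37.3, so both returned after a low level in the morula.

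Of 22 fatty acid and lipid genes 2 were gained and 5 lost, near the shares of 12% and 24.6% over all compared genes. The elongases ELOVL7 (19.8 to 1.4 FPKM) and ELOVL6 (31.1 to 3.64) were lost, and ECHS1 (33 to 140.2) and ME1 (2.8 to 13.6) were gained. For this list gains exceeded losses after median-ratio scaling.

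Amino acid synthesis genes were low in the morula and high in TE. ASNS, asparagine synthetase, was at 90.3 FPKM in oocytes, 4.76 in morulae, 7.6 in IT and 664 in TE. PSPH, which makes serine from phosphoserine, was at 1467 FPKM in oocytes, 0.8 in morulae, 3.95 in IT and 155 in TE. PSAT1, the preceding enzyme, was at 0.367 FPKM in morulae, 0.548 in IT and 56.4 in TE. ASNS and PSAT1 were thus low in IT as well and high in the TE library. IT also holds trophectoderm, with KRT8 at 626 FPKM in IT and 549 in TE. The high level was therefore not shared by all in vivo samples that hold trophectoderm, and the reason was not tested. In a list of serine, glycine and asparagine synthesis drawn up after the values were seen, 9 of 14 were gained and 1 lost.

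A list of ATF4 response genes, which cells induce when amino acids run short and which was also drawn up after the values were seen, had 18 of 24 gained and 0 lost, with a median difference of 1.67. The median of the same genes was 0.08 between the morula and IT, which also holds trophectoderm. CHAC1, a glutathione-degrading enzyme, was at 0.146 FPKM in the morula, 1.48 in IT and 15.5 in TE. The tRNA synthetases GARS1 (6.63 to 73 FPKM), SARS1 (30.9 to 305) and CARS1 (1.24 to 9.72) were gained. Among all 24 synthetases 5 were gained and 3 lost.

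Immediate early and stress genes divided, with 13 of 34 gained and 9 lost, against 12% and 24.6% of all compared genes. The lost share was thus near that of all genes. CDKN1A, the p21 cell cycle inhibitor, was at 0.601 FPKM in the morula (6 fragments) and 15 in TE (106). DUSP1, a phosphatase of the immediate early response, was at 45.1 FPKM in the morula, 89.8 in IT and 3.89 in TE. FOS and JUN, chosen after their values were seen, were at 23.1 and 12.2 FPKM in the morula and at 1.99 and 3.55 in TE.

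Letters in the promoters were read from the RefSeq genome Sscrofa11.1, over the 250 bases before and 50 after each start. Of 12 gained sterol genes with such a window 2 held TCACNCCAC, the core of the sterol response element, as did 0.817% of the promoters of all compared genes. Of 14 gained ATF4 response genes with such a window 4 held TGATGNAA, the letters of the amino acid response element, as did 2.16% of all. Both motifs were searched on both strands and were chosen after the values were seen, as were the 4 genes whose sequence is printed. The stretches lie before the start of 2 sterol and 2 ATF4 response genes, to show the matches in place, 5′ to 3′ on the strand of the gene, with the matched letters in capitals.
SQLE, chr4:14700286-14700365, minus strand: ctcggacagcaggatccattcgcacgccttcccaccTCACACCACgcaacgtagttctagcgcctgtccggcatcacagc
HMGCS1, chr16:27957399-27957478, minus strand: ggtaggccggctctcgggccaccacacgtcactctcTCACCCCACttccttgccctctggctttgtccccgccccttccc
CHAC1, chr1:130363454-130363533, minus strand: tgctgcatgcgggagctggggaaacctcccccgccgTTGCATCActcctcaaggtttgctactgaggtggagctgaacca
FGF21, chr6:54082426-54082505, plus strand: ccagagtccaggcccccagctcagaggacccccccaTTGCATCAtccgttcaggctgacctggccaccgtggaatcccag
The genes beside these letters were at 2.71 and 75.1 FPKM (SQLE), 3.95 and 24.1 (HMGCS1), 0.146 and 15.5 (CHAC1), and 0.0523 and 25.3 (FGF21) in the morula and TE. A match is a description of the sequence and shows no binding.

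Across all windows the gained and lost genes differed little from the rest in most motifs, and no test was run on these shares. Matches were counted on both strands and those of different motifs may overlap. The letters AGATAA, bound by factors such as GATA3, stood in 8.25% of 703 gained promoters, 7.58% of 1424 lost and 7.37% of all 5873 compared. GGAATG, a TEAD motif, stood in 11.4%, 11.1% and 11.1%. GCCNNNGGC, an AP-2 motif, stood in 31.0%, 27.9% and 28.9%, GGGCGG of KLF and SP factors in 65.0%, 62.7% and 65.2%, and TGANTCA of AP-1 in 5.26%, 4.35% and 4.43%. CCGGAA, an ETS motif, stood in 18.9% of gained promoters against 27.9% of lost and 28.2% of all. The octamer ATGCAAAT stood in 1.28%, 0.983% and 0.971%, CACGTG in 12.8%, 11.2% and 10.6%, TATAAA in 8.53%, 10.2% and 8.09%, and CCAAT in 38.4%, 40.1% and 38.7%. The median GC content was 63.0%, 60.3% and 61.7%.

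Hormone and signalling genes had gains and losses. Of 17 steroid, retinoid and prostaglandin genes 5 were gained and 5 lost. PTGS2, the inducible prostaglandin synthase, was at 38 FPKM in the morula, 113 in IT and 218 in TE, and PTGR1, which breaks prostaglandins down, at 6.74, 35.8 and 49.8. CYP26A1, which degrades retinoic acid, was at 17.8 FPKM in the morula with 1 fragment in TE, a ratio of 604 (108 to 23901).

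Of 37 growth factor and cytokine genes 4 were gained and 13 lost, against 12% and 24.6% of all compared genes. The median difference was -0.44 against -0.37 for all genes, and with a filter of 5 FPKM 3 were gained and 5 lost. WNT6, a WNT ligand, was at 0.264 FPKM in the morula and 11.1 in TE. IGFBP2, which binds insulin-like growth factors, was at 9.72 FPKM in the morula and 49.4 in IT and had 0 fragments in TE, at least 122-fold lower than the morula. SOCS1, a brake on cytokine signalling, was at 18.5 FPKM in the morula, 57.1 in IT and 0.0804 in TE. GDF3, a TGF-beta family ligand, was at 12.3 and 1.22 FPKM.

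Pluripotency and inner cell mass genes formed the list with the largest lost share, with 19 of 21 members lost, 1 gained and a median difference of -2.16. The study named 8 of the 21 as specific to the inner cell mass from these same libraries, so their loss is not independent evidence. Of the other 13 members 11 were lost and 1 gained. The list was written with earlier results of these data known, so these 13 are no independent check either. NANOG was at 269 FPKM at the 4-cell stage, 7.73 in the morula (149 fragments) and 9.8 in IT, and had 0 fragments in TE, at least 35.2-fold lower. OTX2, a homeobox factor, was at 37.8 FPKM in the morula, 56 in IT and 0.162 in TE. KLF4 was at 42.8 FPKM and 3.84, KLF17 at 12.4 and 0.821, and LIN28A, an RNA-binding protein, at 40.8 and 9.52.

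Loss was not complete for every member. DPPA2 was still at 32.6 FPKM in TE (morula 149), ESRRB at 2.63 (9.15) and MYC at 3.94 (10.02), and MYC missed the limit after median-ratio scaling. BATF3 had 1 fragment in TE against 20.3 FPKM in the morula, and GSC had 0 against 10.8. RUNX1T1 (43.6 to 0.0445 FPKM), SNAI1 (9.69 to 0.814), BCL3 (6.45 to 0.699), ZFP36L2 (7.11 to 0.843), NR5A2 (2.87 to 0.117) and OSR2 (2.22 to 0.0363) were lost as well. The 1 gained member was DPPA5, which was at 1293 FPKM in oocytes, 20.4 in morulae, 49.6 in IT and 168 in TE.

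The hypoblast list was not lost as a whole. Of 12 compared members 7 were gained and 4 lost. GATA6, a defining factor, was at 66.7 FPKM in the morula, 37.7 in IT and 21.4 in TE, and PDGFRA had 293 fragments in the morula and 3 in TE, a ratio of 69.3 (23.5 to 338). GATA4 was under 1 FPKM in both (0.637 and 0.197). The gained members encode lipid carriers, laminin chains and the lectin LGALS2. APOA2 was at 22.2 and 139 FPKM, APOA1 at 0.765 and 20.9, APOE at 0.425 and 2.86, LAMC1 at 0.311 and 8.15, LAMB1 at 1.3 and 6.22, and LGALS2 at 7.29 and 30.3. APOC3 had 0 fragments in the morula and 176 in TE (17.4 FPKM), at least 82.7-fold higher. FN1 (2.38 to 0.092) and the collagen chaperone SERPINH1 (1.43 to 0.0309) were lost.

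Called genes of DNA replication, mitosis and chromatin were all lost. Of 37 DNA replication genes 0 were gained and 19 lost, of 37 mitosis genes 0 and 17, and of 33 DNA methylation and chromatin genes 0 and 15. After median-ratio scaling 0 were gained in each list, and 14, 11 and 7 were lost. CCNE1, which drives entry into S phase, was at 23.7 FPKM in the morula, 13.2 in IT and 1.37 in TE, and the helicase subunits MCM5 and MCM7 were at 19.3 and 45.8 FPKM in the morula and 3.2 and 8.74 in TE. LIG1 was at 13.8 and 1.59. CDK1 was at 413 and 106 FPKM, CCNB1 at 424 and 106, AURKB at 62.6 and 14.5, and KIF23 at 56 and 9.36. DNMT1, the maintenance methyltransferase, was at 3581 FPKM in oocytes, 28.7 in morulae and 4.22 in TE, EED of the Polycomb complex at 209.8 and 34.6, CTCF at 27.6 and 6.17, and SIRT1 at 50.3 and 12.5.

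Few housekeeping genes were called. Of 44 ribosomal protein genes 2 were gained and 1 lost (13 and 1 after median-ratio scaling), of 35 proteasome genes 2 and 3, and of 65 nuclear respiratory chain genes 3 and 4. The proteasome and respiratory lists had more gains than losses after median-ratio scaling. RPL23 (676 to 1483 FPKM) and RPL23A (28.8 to 59.9) are uncertain because near copies of ribosomal protein genes share reads. NDUFAF4 (288 to 40.2 FPKM) and NDUFAF5 (42.8 to 10.8), which assemble complex I, were lost, and ATP5IF1 (496 to 1856) and NDUFS8 (275 to 641) gained. PSMA3 (157 to 359) was gained, and PSMG3 (35 to 11.6), PSME3 (30.4 to 10.8) and PSMD6 (151 to 71.7) were lost. Of 13 mitochondrially encoded genes, a list added after the values were seen, COX1 was gained and CYTB lost, and after median-ratio scaling 5 were gained and 0 lost. Of 11 imprinted genes 4 were gained and 3 lost, against 12% and 24.6% of all compared genes. Among them GRB10 (0.767 to 4.05 FPKM) and COPG2 (1.12 to 5.83) were gained and DIRAS3 (35.2 to 2.44) and SNRPN (18 to 4.95) lost.

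On the X chromosome, looked at after the values were seen, 25 of 209 compared genes were gained (11.96%) and 79 lost (37.8%), and of 5603 autosomal genes 12.01% were gained and 23.7% lost. After median-ratio scaling 34 X genes were gained and 55 lost. The median difference was -0.65 on the X and -0.36 on autosomes. Between the morula and IT, a comparison that uses the same morula library, the medians were -0.63 and -0.16. In NT-D they were -0.44 and -0.60, and in NT-LW -0.72 and -0.74. Embryos were all male in the clones and of mixed sex in IV-D, so embryo group and sex cannot be told apart here. The share of males in the IV-D morula and blastocyst pools is not known. Within IV-D the step and a difference in sex between pools cannot be told apart either. These shares are a description, and no test between chromosomes was run.

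The gained and lost genes were also read in the other in vivo libraries. They were called on the morula and TE levels, so their order at those 2 stages is set by that choice. The median gained gene was at 2.24 FPKM in oocytes, 4.61 in morulae, 8.22 in IT and 21.1 in TE, and 572 of the 864 had their highest level of the 8 libraries in TE. In 663 of them IT lay between the morula and TE, and in 70 IT was above TE. The median lost gene was at 4.80 FPKM in oocytes, 15.0 at the 8-cell stage, 14.1 in morulae, 9.59 in IT and 3.49 in TE. The highest level of lost genes was at the 8-cell stage for 511, in morulae for 405, at the 4-cell stage for 265 and in IT for 209. The median of all compared genes was 4.86 FPKM in oocytes, 10.3 at the 8-cell stage, 10.2 in morulae, 9.40 in IT and 8.04 in TE. Counts by highest stage and by the place of IT were not made over all compared genes, so they have no share beside them.

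In oocytes 511 of the 864 gained genes (59.1%) were at 1 FPKM or more, against 70.1% of lost genes and 72.3% of all compared genes. A fall from oocyte to morula was counted for gained genes only, whose choice favours a low morula level, so no share over all genes stands beside it. For 206 gained genes the morula level was lower than the oocyte level by more than 1 on the log2 scale. UCHL1 was among these, at 447 FPKM in oocytes, 308 at the 4-cell stage, 1.3 in morulae, 2.03 in IT and 215 in TE. A list of oocyte transcripts had 21 compared members, of which 13 were lost and 2 gained, UCHL1 and FCER1G. FCER1G was listed at 0 in the IV-D oocytes and so goes against the name of that list here. OOSP2 (9461 FPKM in oocytes, 4.99 in morulae) and TCL1B (6.93 and 5.1) had 0 fragments in TE.

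A smaller set was under 1 FPKM at all earlier in vivo stages. It held 67 genes, of which 38 were under 1 in IT also, and 39 remained when the limit was 0.5. RARRES2, NPPB, MYL3, SLC66A3, RENBP and WNT6 were in this set. Among members chosen after their values were seen, PAGE4 reached 30.6 FPKM, the arsenite methyltransferase AS3MT 23, PHGDH, the first enzyme of serine synthesis, 16.2, and TNNC1, a troponin, 10.6.

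**Figure D4:**
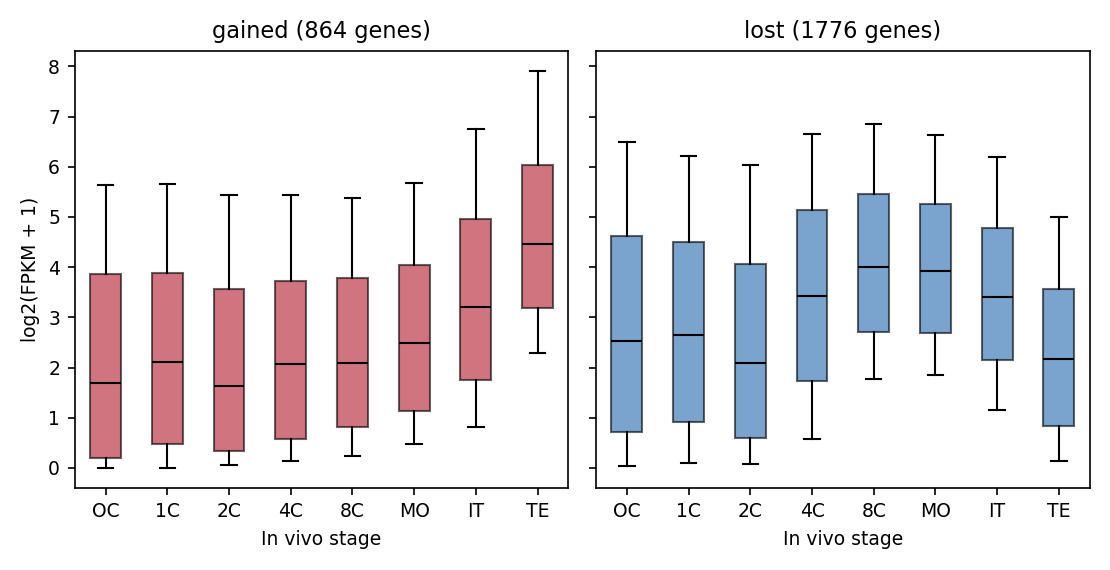
Box plots of log2(FPKM + 1) of the 864 gained genes (left) and 1776 lost genes (right) in the 8 in vivo libraries, oocyte (OC) to TE, with boxes from the 25th to the 75th percentile, lines at the median and whiskers from the 10th to the 90th percentile of genes. Gained genes sit low until the morula and are higher in IT and highest in TE, and lost genes are highest around the 8-cell stage and morula. The genes were chosen on the morula and TE libraries.

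The same step was measured in the clones, which share no morula or TE library with IV-D. In NT-D 679 of 7839 compared genes were gained (8.66%) and 3017 lost (38.5%), with a median difference of -0.69, and in NT-LW 649 of 7381 were gained (8.79%) and 2973 lost (40.3%), with a median of -0.78. Of the 864 genes gained in IV-D 437 were gained in NT-D (50.6% of the IV-D list and 64.4% of the NT-D list) and 365 in NT-LW (42.2% and 56.2%). Of the 1776 lost in IV-D 1249 were lost in NT-D (70.3% and 41.4%) and 1259 in NT-LW (70.9% and 42.3%). All 3 groups shared 275 gains and 980 losses. The opposite call in both clone groups was made for 18 of the gained and 4 of the lost genes.

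A fit with limma over the 6 libraries, with embryo group as a block, asked whether the step exceeded its spread between embryo groups. The groups are not replicates of the in vivo condition, so its p-values concern the step shared by fertilized and cloned embryos. Of 7311 genes 555 were higher in TE (7.59%) and 2002 lower (27.4%) at an adjusted p under 0.05, and 1017 and 631 after median-ratio scaling. Of the 864 gained genes 444 passed in the same direction, of the 1776 lost genes 1389 (604 and 606 after median-ratio scaling). These genes were called on the IV-D pair, which is part of that fit, so their direction in it is partly set by the choice. In the fit of the clones alone, 484 of 7413 genes were higher (6.53%) and 2048 lower (27.6%). There 332 of 837 gained genes passed in the same direction (39.7%) and 24 in the opposite one, and 1102 of 1700 lost genes in the same direction (64.8%) and 6 in the opposite one. The count of lower genes was 1322 without the NT-D pair and 850 without the NT-LW pair.

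The leading genes differed in how far the clones followed. FCER1G was higher in TE in all 3 groups, at 0.83 and 879.5 FPKM in NT-D and 0.371 and 420.4 in NT-LW (limma log2 difference 8.35, SE 0.32, adjusted p = 9.52e-06). MGST1 passed as well (limma log2 difference 7.21, SE 0.54, adjusted p = 0.000209), as did OTX2 among the losses (limma log2 difference -5.17, SE 0.31, adjusted p = 7.37e-05). SULT1E1 fell from 423 to 1.49 FPKM in NT-D and from 986 to 8.23 in NT-LW (limma log2 difference -7.99, SE 0.53, adjusted p = 0.000112). SULT1E1 was thus higher in TE of both clones than of IV-D, and BAD was at 45.5 FPKM and ETNPPL at 50.7 in NT-LW TE.

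ASNS and PSPH were higher in clone morulae than in IV-D morulae. ASNS was at 4.76 FPKM in IV-D morulae, 153 in NT-D and 39.4 in NT-LW, and at 664, 627 and 538 in TE. The groups were thus closer in TE than in the morula, which was not tested. Over the 3 groups ASNS was higher in TE (limma log2 difference 4.21, SE 0.73, adjusted p = 0.00495). PSPH was at 0.8, 43.3 and 13.3 FPKM in morulae and 155, 166 and 110.1 in TE. GATA3 passed (limma log2 difference 2.48, SE 0.32, adjusted p = 0.0017), with 3.17 and 18.5 FPKM in NT-D and 1.59 and 15.1 in NT-LW. NANOG was at 0 in TE in all 3 groups (limma log2 difference -2.93, SE 0.40, adjusted p = 0.00207). KRT8 was at 19.8 FPKM in NT-LW morulae and 1033 in TE, a wider step than in IV-D, which was not tested. Over the 3 groups KRT8 was higher in TE (limma log2 difference 3.25, SE 0.63, adjusted p = 0.00768).

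By list, the limma fit gave 14 sterol genes higher and 1 lower of 19, 18 and 2 of 33 endocytosis and lysosome genes, 17 and 2 of 35 actin genes, and 11 and 7 of 36 keratin and junction genes. It gave 1 and 16 of 20 pluripotency genes, 3 and 9 of 19 trophectoderm regulators, and had 19 of 37 replication, 21 of 37 mitosis and 17 of 33 chromatin genes lower. Over all genes of that fit 7.59% were higher and 27.4% lower, and after median-ratio scaling 1017 and 631 of 7207. After that scaling the lower counts were 12 for pluripotency, 10 for replication, 6 for mitosis, 3 for chromatin and 6 for trophectoderm regulators. The chromatin count was then near the share over all genes. Of 11 hypoblast genes 3 were higher and 4 lower, and 3 and 0 in limma after median-ratio scaling, where 4 and 1 had an unadjusted p under 0.05. By the fold rule that list had 3 gained and 7 lost in NT-D and 5 and 3 in NT-LW. The higher and lower counts were 3 and 3 of 24 tRNA synthetases (8 and 0 after scaling, with 13 and 1 at an unadjusted p under 0.05), 6 and 5 of 28 glycolysis genes (9 and 2), 6 and 5 of 25 nutrient transporters (8 and 4), 5 and 7 of 34 immediate early and stress genes (6 and 4), and for the 36 keratin and junction genes 15 and 2 after scaling. APOE, APOC3, LDHA, FRMD6 and STK3 were gained in IV-D and did not pass. Their log2 differences were -3.45, -3.04, -0.51, -0.97 and 0.11 in NT-D and -0.37, 1.06, -0.57, -0.58 and -1.26 in NT-LW. They were not the only named genes that did not pass. Others included the gains APOA1, LGALS2, ME1, CARS1, SLC26A6, COPG2 and UCHL1 and the losses MPC1L and SLC6A8.

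**Figure D5:**
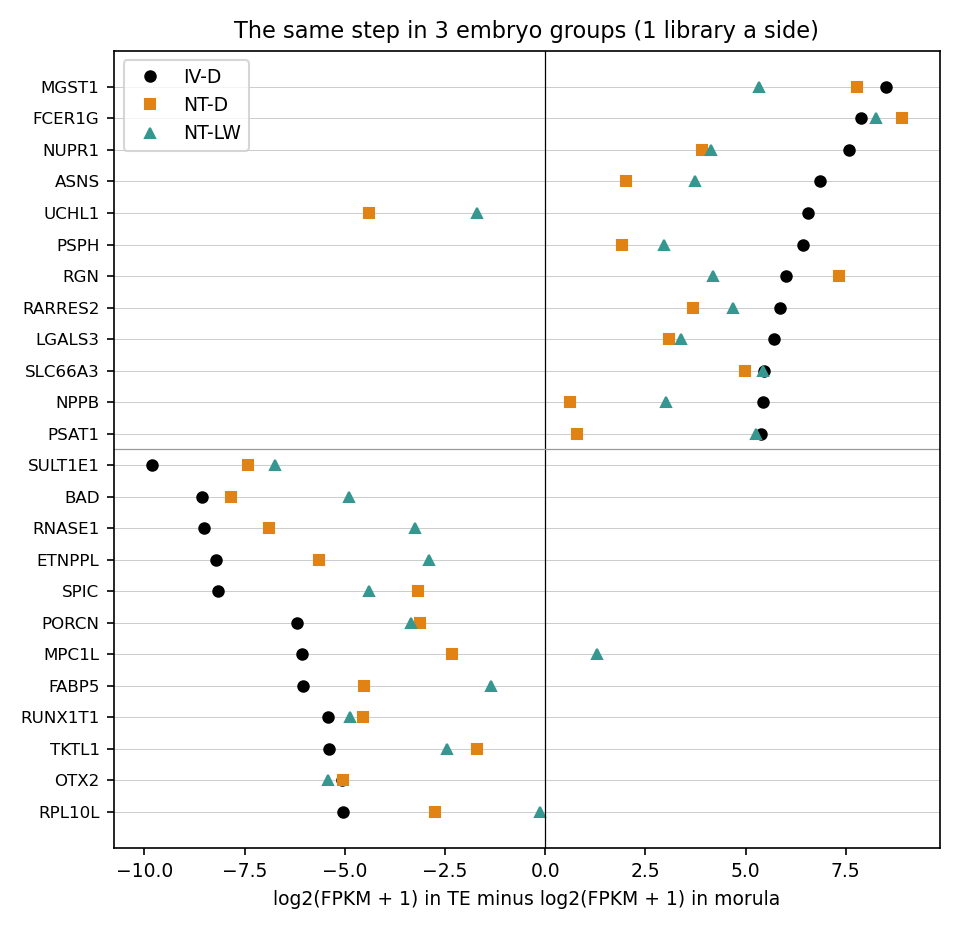
Difference of log2(FPKM + 1), TE minus morula, in IV-D (circles), NT-D (squares) and NT-LW (triangles), 1 library a side, for the 12 genes with the largest gains (upper) and the 12 with the largest losses (lower) in IV-D, which were chosen on the IV-D values. UCHL1 is to the right of 0 in IV-D and to the left in both clone groups, and MPC1L is to the right of 0 in NT-LW alone.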

How the data were processed

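Per the labels and the study's methods, the authors made cDNA with a SMART-Seq v4 kit, aligned paired reads to Sscrofa11.1 with HISAT2 2.0.4, counted fragments per Ensembl gene with HTSeq 0.9.1 and deposited FPKM values, 1 library a column, for 8603 genes. How these genes were chosen is not given in the sources used here. The spacing of low FPKM values gave back whole fragments and library depths, for 100% of genes within 0.02 of a whole number. They gave exact 95% conditional binomial intervals, which cover counting error only. For genes with 0 fragments in a library, "at least" sets the other library against the level of 3 fragments. It is not the limit of that interval, which is lower. The interval limit was 877 for RNASE1, 28.3 for NANOG, 16.4 for CLDN10, 98.9 for IGFBP2 and 66.6 for APOC3.

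A gene was compared at an FPKM of at least 1 in either library and called when log2(FPKM + 1) differed by more than 1. limma 3.58.1 (R 4.3.3) was run on log2(FPKM + 1) of 6 libraries with a mean FPKM of at least 1, with embryo group as a block because each group has its own embryos, a trend, and Benjamini-Hochberg adjustment. The scripts were tested on simulated data. Gene lists were written from general knowledge. Members and lists were chosen with earlier results of these data known. Named genes were the 12 largest gains and losses with a symbol and at least 10 FPKM in either library, the 4 largest called members of each list, and all called members of the trophectoderm, junction, Hippo, pluripotency and hypoblast lists. Some genes that this rule names are not reported here. Promoters and positions came from RefSeq by gene symbol. Alternatives were another pseudocount (0.1), filter (5 FPKM or none), scaling (median ratio, or a sum of 1000000), threshold and left-out group.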

Additional observations from a re-analysis of the deposited data

Results flagged for a closer look

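For 2 genes named above, the step from morula to TE was called in opposite directions in the in vivo and both cloned groups. The difference between the groups was not tested, since each has 1 library a side. UCHL1 had a log2 difference of 6.55 in IV-D, -4.41 in NT-D and -1.71 in NT-LW. Its morula level was 1.3 FPKM in IV-D, 158 in NT-D and 35.6 in NT-LW, and its TE level 215, 6.51 and 10.2. CDKN1A had a log2 difference of 3.32 in IV-D, -1.27 in NT-D and -2.41 in NT-LW. Its morula level was 0.601 FPKM in IV-D, 33.2 in NT-D and 33.5 in NT-LW, and its TE level 15, 13.1 and 5.5.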

How the results depend on the processing

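Under median-ratio scaling the IV-D counts became 1323 gained and 1092 lost, those of NT-D 1530 and 1653, those of NT-LW 1416 and 1084, and those of limma over the 3 embryo groups 1017 higher and 631 lower. Gained minus lost members turned positive there for nutrient transport (4), fatty acid and lipid synthesis (2), proteasome (4) and the nuclear respiratory chain (7). A limit of 2 on the log2 difference left 307 gained and 388 lost genes. Genes under the limit at all earlier stages numbered 39 at 0.5 FPKM and 38 with IT counted. Leaving out 1 embryo group gave 407 to 484 genes higher and 850 to 2048 lower in limma, the lowest without the NT-LW pair, and no replicate block gave 563 and 2295. Over the promoters of all genes of the table, the share with the KLF and SP motif was 63.1% and with the ETS motif 25.6%. Leaving out the mitochondrial genome, chosen after seeing the data, gave 812 gained and 1904 lost. For the counts over all genes the other alternatives stayed within 1.5 times, while counts of members in single lists moved further in some cases. Of the named genes, CITED2, GJB5, AMOT, MYC and PSMD6 were no longer called under median-ratio scaling, nor were RPL23 and RPL23A when each library was rescaled to a sum of 1000000. With 1 library a side, variation between embryos could not be estimated, and the 183 lost genes with at most 3 fragments in TE have wide ratios. The genes of the deposited table are a subset whose selection is not given in the sources used here.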

Other observations

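Further genes had opposite calls in IV-D and in both cloned groups, and were chosen after their values were seen. DGKA, a diacylglycerol kinase, had log2 differences of 1.84 in IV-D, -1.10 in NT-D and -1.83 in NT-LW, and ECE1, the endothelin-converting enzyme, 1.77, -1.60 and -1.17. In both cases the groups differed less in TE (13, 13.9 and 6.4 FPKM for DGKA, and 2.76, 2.62 and 1.65 for ECE1) than in the morula, where IV-D was lowest (2.9, 30.9 and 25.3, and 0.103, 9.96 and 4.95). Genes chosen for opposite steps must differ between groups in the morula, in TE or in both, so this is partly set by the choice. SYCP3, of the meiotic synaptonemal complex, was lost in IV-D (34.8 to 13.3 FPKM) and gained in NT-D (0.572 to 4.55) and NT-LW (1.58 to 13.9). The differences between groups were not tested.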
